A study of Rattus norvegicus with 56 samples.

Results

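The microRNAs miR-199a-3p, miR-199a-5p and miR-214-3p were followed through fetal myocardium, amniotic fluid and maternal serum of the rat. They were found by name alone, and they were 3 of the 682 microRNAs named anywhere in the series. All 3 were listed in each tissue, among 661 microRNAs in myocardium, 523 in amniotic fluid and 518 in maternal serum. Small RNA sequencing was done on 56 samples from Sprague-Dawley rats at embryonic day 19, with 7 samples in each of 8 groups. Pregnant rats of the VSD and non-VSD groups were gavaged with dimethadione (DMO), the active metabolite of trimethadione, at 60 mg/ml and 5 ml/kg every 12 h for 6 doses from day 8, and NC rats were given distilled water. Fetuses in the VSD group had a ventricular septal defect without malformed great vessels, whereas non-VSD fetuses had the same drug and an intact septum. Maternal serum was sequenced for the NC and VSD groups. The dam of each fetus was not given, so littermates could not be told from unrelated fetuses, and p-values measure the spread between these samples.

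A microRNA hairpin is cut into a short duplex, and one strand of it, the -5p or the -3p arm, is usually kept as the guide that directs Argonaute to messenger RNAs through its seed, while the other is degraded. The hairpins of miR-199a and miR-214 are made from one long noncoding transcript, Dnm3os, which runs antisense within an intron of the dynamin gene Dnm3 and is driven by the mesenchymal factor Twist1. The cluster is known from fibroblasts, cartilage, smooth muscle and the mesenchyme of the developing heart, and miR-214 is known for limiting calcium entry in cardiomyocytes, whereas miR-199a-3p is known for promoting cardiomyocyte proliferation when it is supplied in excess.

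In the RefSeq annotation of GRCr8 both hairpins lay on the plus strand of chromosome 13, Mir199a2 at chr13:77116225-77116334 and Mir214 at chr13:77121645-77121752. Both lay within the span of Dnm3, at chr13:76892381-77371346 on the minus strand. The mature sequences are printed because the comparison of arms below rests on them. They are written 5′ to 3′ with the seed, bases 2 to 8, in capitals, and they lay at chr13:77116294-77116315 for miR-199a-3p, chr13:77116255-77116277 for miR-199a-5p, chr13:77121713-77121733 for miR-214-3p and chr13:77121656-77121672 for miR-214-5p.
miR-199a-5p: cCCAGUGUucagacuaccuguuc
miR-199a-3p: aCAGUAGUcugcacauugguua
miR-214-5p: aGAGUUGUcaugugucu
miR-214-3p: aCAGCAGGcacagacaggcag
The 4 seeds differ from one another, and 0 other microRNAs of the 693 mature sequences in the table carry any of them. The annotated miR-199a-3p and miR-214-5p are 5340 bases apart. In mouse and human the -3p arm of the paralogous hairpin miR-199b has the same sequence as miR-199a-3p. Reads of such a copy, or of another hairpin with the same -5p or -3p arm, would be counted under the same name. Counts of either arm are therefore not tied to Mir199a2 alone.

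Library depth differed between tissues, with 1694811 to 9371130 counts per sample in myocardium, 78188 to 331787 in amniotic fluid and 147609 to 581350 in maternal serum. Myocardium came from wax blocks. Myocardium and serum libraries were made with the same kit (TruSeq), whereas amniotic fluid was prepared with another (QIAseq), so levels in amniotic fluid are given beside the others and not tested against them. In 3 of the 21 myocardium libraries, NC replicate 2 and VSD replicates 1 and 4, the 6 muscle microRNAs (miR-1-3p, miR-133a-3p, miR-133b-3p, miR-208a-3p, miR-208b-3p and miR-499-5p) summed to 4079 to 7311 CPM (counts scaled to a library of 1000000), against 19595 to 99040 in the other 18. The same 3 libraries held 12120 to 15250 CPM of the 8 epithelial microRNAs, among them the miR-200 family, against 251 to 11596 in the others, and 254418 to 309639 CPM of the mesenchymal microRNAs described at the end, against 315450 to 621552. Fold changes and ratio tests without these 3 libraries are given below where they differ. The differences compared between tissues, the correlations, the likeness and the arm shifts of all hairpins were not computed without them. In bulk samples, fewer cells of a type and less RNA per cell cannot be told apart.

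In fetal myocardium both arms of miR-199a were abundant and close to each other. miR-199a-5p took 0.230% to 1.27% of the counts of a sample (median 0.681%, median rank 26 of 661 microRNAs) and miR-199a-3p took 0.223% to 0.944% (median 0.613%, median rank 29). miR-214-3p was lower, at 0.0156% to 0.122% with a median of 0.0508% and a median rank of 108. The entry named miR-214-5p reached 66 counts in all 21 myocardium libraries together and was listed at 0 in 7 of them. These counts cover that 17-base entry alone and do not show how much of the opposite arm was present.

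In the fluids the arms of miR-199a parted. miR-199a-3p took 0.926% to 8.09% of the amniotic fluid counts (median 2.99%), ranked between 1 and 23 among 523 microRNAs, and took 0.101% to 0.515% of the serum counts (median 0.377%, median rank 32). miR-199a-5p was scarce in both, with a median of 0.0253% in amniotic fluid and 0.00285% in serum. It had 2 to 26 counts in a serum sample and 0 to 223 in an amniotic fluid sample. miR-214-3p was also scarce, with a median of 0.0189% in amniotic fluid and 0.00286% in serum, or 0 to 103 and 2 to 24 counts per sample. By median share miR-199a-3p was highest in amniotic fluid. Myocardium and serum could not be ordered, since the NC medians, 0.334% in myocardium and 0.389% in serum, stood the other way round from the medians over all samples, and the ranges overlapped. miR-199a-5p and miR-214-3p were highest in myocardium, then amniotic fluid, then serum. The lowest miR-199a-5p share in myocardium, 0.230%, lay above the highest in amniotic fluid, 0.0898%, and in serum, 0.00677%. For miR-214-3p the lowest share in myocardium, 0.0156%, lay above the highest in serum, 0.00962%. The other ranges overlapped.

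**Figure D1:**
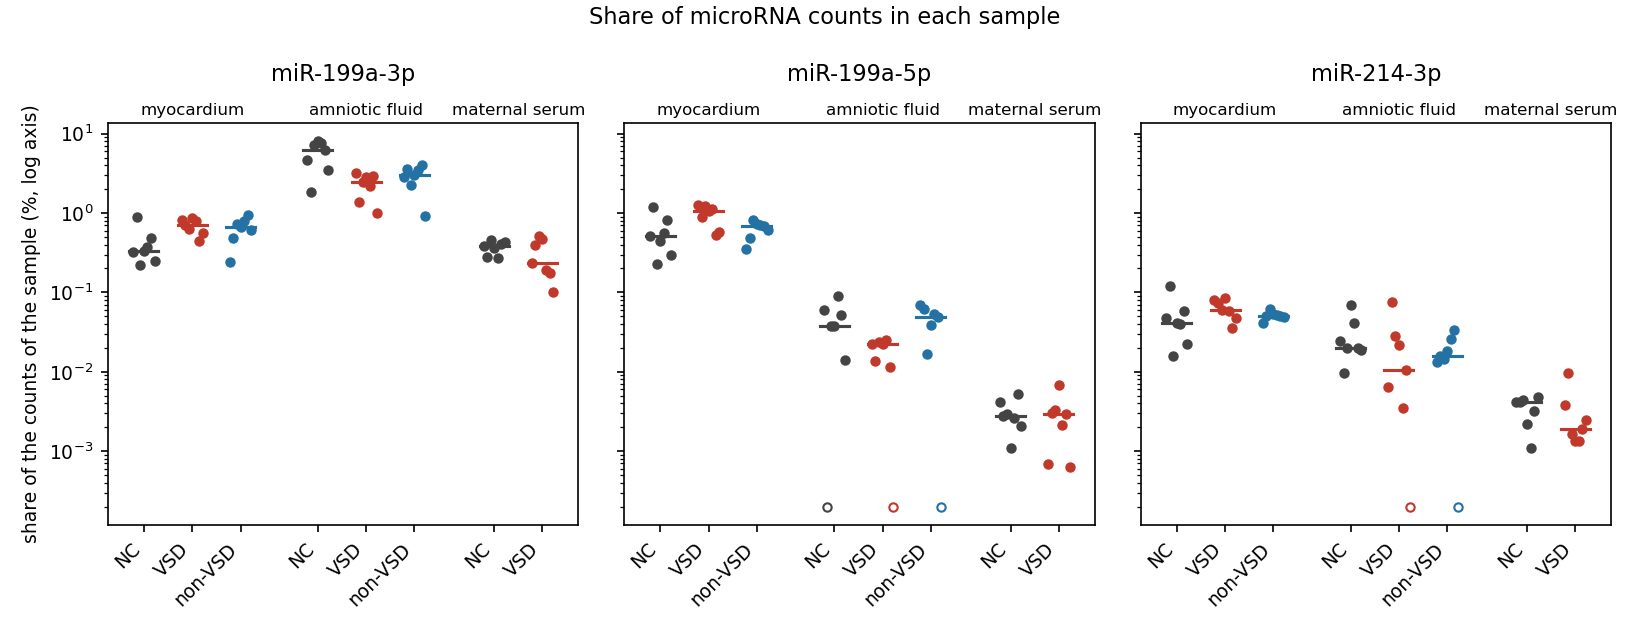
Share of all microRNA counts taken by each of the 3 microRNAs in each sample, in percent on a log axis, with 7 samples per group. Points are samples, horizontal bars are group medians, and open points at the base are samples with 0 counts. miR-199a-3p lies between 0.101% and 8.09% in every tissue, whereas miR-199a-5p falls from a median of 0.681% in myocardium to 0.00285% in maternal serum.

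miR-199a-5p had 0 counts in 3 amniotic fluid samples, NC replicate 2, VSD replicate 7 and non-VSD replicate 7. With 82333, 155171 and 94282 counts in all, a count of 0 allows up to 36.4, 19.3 and 31.8 CPM, for counting error only. miR-214-3p had 0 counts in the last 2 of these. miR-199a-3p was counted in all 56 samples.

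The ratio of the arms within a sample needs no scaling between libraries, and it separated the tissues. In the NC group miR-199a-5p stood at 103% to 167% of miR-199a-3p in myocardium (median 134%) and at 0.30% to 1.29% in maternal serum (median 0.95%). The -5p arm exceeded the -3p arm in 7 of 7 NC and 7 of 7 VSD myocardium samples and in 4 of 7 non-VSD samples, whereas it stayed under 5% of the -3p arm in every fluid sample. On the log2 scale, with 0.5 added to each count, the NC means were 0.44 ± 0.24 (SD, n = 7) in myocardium and -7.00 ± 0.68 (SD, n = 7) in serum. The ratio was thus 174-fold higher in myocardium (difference 7.44, exact two-sided permutation test, p = 0.000583, the smallest p that 7 against 7 can give, and 0.00466 after Benjamini-Hochberg adjustment over the 16 ratio tests). The ranges did not overlap. The serum values rest on 3 to 26 counts of the -5p arm per sample, and with only the samples of at least 10 counts of both arms the difference was 6.96 (exact adjusted p = 0.0242).

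Amniotic fluid was on the side of the serum. The -5p arm stood at a median of 0.53% of the -3p arm in the NC group (0% to 1.26%), 0.79% in the VSD group (0% to 1.16%) and 1.31% in the non-VSD group (0% to 2.43%). In VSD serum it stood at 0.76% (0.29% to 1.70%). Myocardium and serum differ in source, in wax embedding and in the extraction kit, and these cannot be told apart.

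The ratio of the arms also shifted between the tissues in many other hairpins, and miR-199a was among those with the largest shifts. Such a shift is one of degree and need not change which arm is in excess. Hairpins were kept with at least 10 counts of each arm, summed over the 7 samples of a group, so arms with few counts per sample entered. Of 92 such hairpins in NC myocardium and NC serum, the median size of the shift was 2.67 on the log2 scale. miR-199a ranked 5 by size. The same comparison in the VSD group, with 81 hairpins, gave 7.22 for miR-199a, rank 4, with a median size of 2.63. Between serum and amniotic fluid, which came from different kits, miR-199a shifted by 0.77 and ranked 49 of 68. These ranks are descriptions and no test was made over hairpins.

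**Figure D2:**
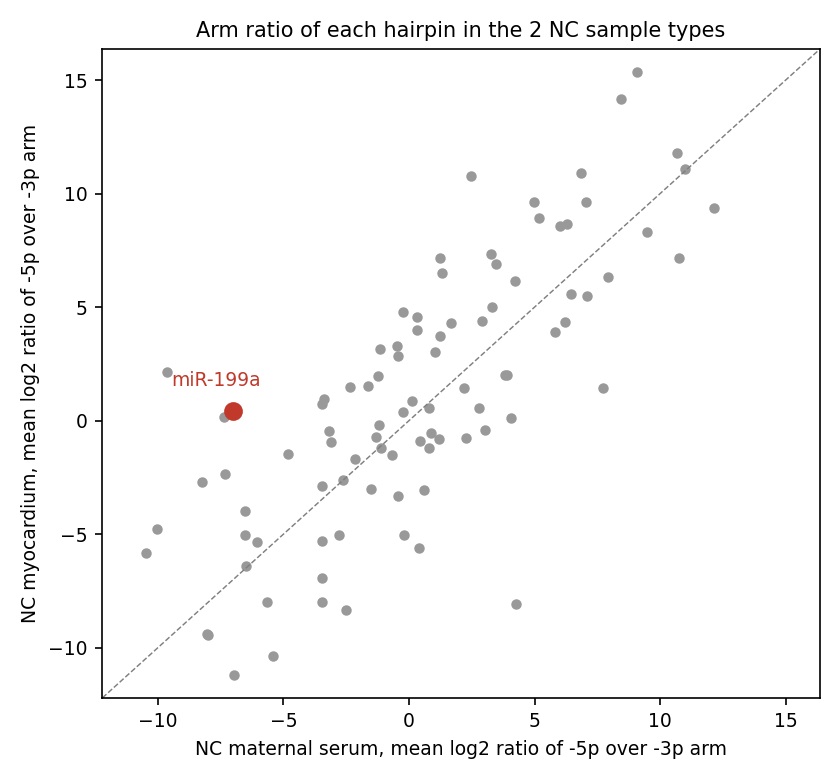
Mean log2 ratio of the -5p over the -3p arm of each of 92 hairpins in NC maternal serum (horizontal axis) and NC myocardium (vertical axis), 7 samples each, with 0.5 added to each count. Grey points are hairpins, the red point is miR-199a, and the dashed line marks equal ratios. miR-199a lies at -7.00 in serum and 0.44 in myocardium, well above the line.

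miR-214-3p was also scarcer beside miR-199a-3p in serum than in myocardium. In the NC group miR-214-3p stood at 6.99% to 14.5% of miR-199a-3p in myocardium (median 11.9%) and at 0.41% to 1.46% in serum (median 0.98%). The log2 ratio was -3.19 ± 0.36 (SD, n = 7) in myocardium and -6.81 ± 0.58 (SD, n = 7) in serum, 12.4-fold higher in myocardium (exact two-sided permutation test, p = 0.000583, adjusted p = 0.00466). The ranges did not overlap here either. The ratio mostly restates the level of miR-214-3p, which differed by 3.51 on the log2 scale, whereas that of miR-199a-3p differed by -0.16. No ratios of other pairs of microRNAs were set beside it. In levels, tested below, 78% of 382 microRNAs differed between these sample types at an edgeR adjusted p under 0.05.

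**Figure D3:**
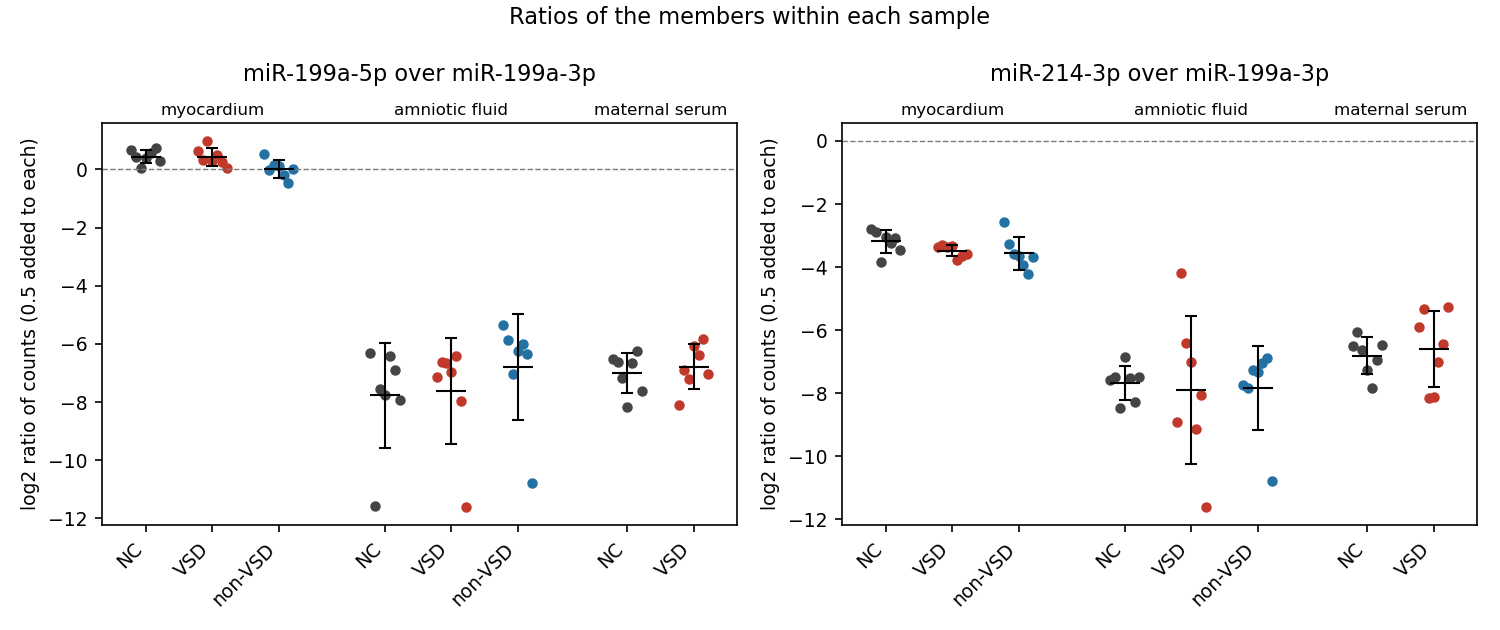
Log2 ratio of miR-199a-5p over miR-199a-3p (left) and of miR-214-3p over miR-199a-3p (right) in each sample, with 0.5 added to each count. Coloured points are samples, 7 per group, and black marks are the mean ± SD. The left ratio lies near 0 in myocardium and near -7 in serum, and the lowest points in amniotic fluid are samples with 0 counts of the numerator.

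Tested as levels over all microRNAs with edgeR's quasi-likelihood test, NC myocardium against NC serum gave the same order, although 78% of the 382 microRNAs tested were called at an adjusted p under 0.05 (45.5% higher and 32.5% lower in myocardium), so that 2 of 3 called is near that background. miR-199a-5p had 3650 to 9781 CPM (median 6042) in NC myocardium and 10.1 to 50.1 (median 28.0) in NC serum, after TMM scaling within each tissue. It was higher in myocardium by 7.20 on the log2 scale (SE 0.41, edgeR adjusted p = 5.86e-11). miR-214-3p had 247 to 990 (median 544) against 14.3 to 48.7 (median 40.0), a difference of 3.51 (SE 0.39, edgeR adjusted p = 2.58e-07). The median difference over all microRNAs in this comparison was 0.57, so both stood above it.

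The level of miR-199a-3p could not be ordered between these tissues. It had 3088 to 7319 CPM (median 4563) in NC myocardium and 2738 to 4443 (median 3881) in NC serum, and the ranges overlapped. The difference was -0.16 (95% interval -0.61 to 0.28, edgeR adjusted p = 0.485). Its sign depended on the scaling and the filter. It was called lower, at -0.54 (edgeR adjusted p = 0.0122), without NC myocardium replicate 2, and called higher, at 0.72 (edgeR adjusted p = 0.0132), with only the microRNAs of at least 10 counts in every sample.

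The other comparisons asked whether the members differ with DMO and with the septal defect within a tissue. In myocardium none of the 3 passed the adjusted threshold, where 0.426% of 469 microRNAs did in the VSD group against NC and 0.219% of 456 in the non-VSD group. Both DMO groups were compared with the same 7 NC samples, so the values stand side by side and are not independent.

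miR-199a-3p had 4617 to 6909 CPM in VSD myocardium (median 5855) and 2659 to 9501 in non-VSD myocardium (median 6066), against the NC range of 3088 to 7319. The NC median was exceeded by all 7 VSD samples and by 6 of 7 non-VSD samples, and the ranges overlapped. The log2 fold change was 0.39 in the VSD group (SE 0.19, 95% interval -0.02 to 0.80, edgeR adjusted p = 0.266) and 0.47 in the non-VSD group (SE 0.25, 95% interval -0.06 to 1.0, edgeR adjusted p = 0.366). NC replicate 2 was the highest NC sample, and without it the VSD difference was 0.52 and was called (edgeR adjusted p = 0.0437), in a fit that called 77 of 474 microRNAs against 2 of 469 with that library. Without all 3 libraries low in muscle microRNAs it was also 0.52, with an edgeR adjusted p of 0.105.

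miR-199a-5p had 5483 to 11164 CPM in VSD myocardium (median 8564) and 3875 to 6849 in non-VSD myocardium (median 6536), and 5 of 7 VSD samples lay above every non-VSD sample. The log2 fold change against NC was 0.38 in the VSD group (SE 0.24, edgeR adjusted p = 0.374) and -0.04 in the non-VSD group (95% interval -0.53 to 0.44, edgeR adjusted p = 0.945). Between the VSD and non-VSD groups, fitted with all 3 groups, it was 0.46 (SE 0.22, 95% interval 0.01 to 0.92), with an unadjusted p of 0.0474 and an edgeR adjusted p of 0.426. In that comparison 0% of 483 microRNAs were called and 11.6% had an unadjusted p under 0.05.

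miR-214-3p in myocardium had 368 to 704 CPM in the VSD group (median 545) and 444 to 542 in the non-VSD group (median 491), inside the NC range of 247 to 990. The log2 fold change was 0.03 (95% interval -0.57 to 0.63) and -0.06 (95% interval -0.61 to 0.50) in the VSD and non-VSD groups, with edgeR adjusted p-values of 0.954 and 0.938.

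The arm ratio in myocardium was lower in the non-VSD group, without passing the adjusted threshold. miR-199a-5p stood at 103% to 197% of miR-199a-3p in VSD myocardium (median 124%) and at 72.1% to 146% in non-VSD myocardium (median 100.1%), against 103% to 167% in NC. In 4 of 7 non-VSD samples the ratio lay under every NC and every VSD sample. The log2 ratio was 0.43 lower in non-VSD than in NC (difference -0.43, exact two-sided permutation test, p = 0.0146, adjusted p = 0.0777) and VSD exceeded non-VSD by 0.42 (exact p = 0.0256, adjusted p = 0.103). The VSD and NC groups differed by -0.01 (exact p = 0.946). Without non-VSD replicate 1, the highest of its group, both differences passed the threshold, at -0.52 and 0.51 (exact adjusted p = 0.0186 for each). The first also passed without NC replicate 3, the lowest of its group, at -0.49 (exact adjusted p = 0.0404). Each of these fits leaves out a sample that ran against the difference, which lowers p. Over all fits without 1 sample the exact adjusted p reached 0.128 for the first difference and 0.219 for the second.

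The ratio of miR-214-3p to miR-199a-3p in myocardium had a median of 9.62% in the VSD group (7.36% to 10.2%) and 8.05% in the non-VSD group (5.36% to 16.7%), against 11.9% in NC. All 7 VSD samples lay under the NC median. The log2 difference from NC was -0.29 in the VSD group (exact two-sided permutation test, p = 0.0816, adjusted p = 0.261) and -0.37 in the non-VSD group (exact p = 0.149, adjusted p = 0.398). Without NC replicate 3 the VSD difference was -0.40 (exact adjusted p = 0.0435).

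In amniotic fluid the abundant arm, miR-199a-3p, was lower in both DMO groups without passing the adjusted threshold in either. It had 17921 to 82824 CPM in NC (median 65224), 11392 to 34197 in the VSD group (median 21713) and 9579 to 42655 in the non-VSD group (median 28729). All 7 VSD samples and all 7 non-VSD samples lay under the NC median, and 5 of 7 NC samples lay above every VSD sample and above every non-VSD sample. The ranges nevertheless overlapped through NC replicates 2 and 7.

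The log2 fold change of miR-199a-3p in amniotic fluid was -1.23 in the VSD group (SE 0.36, 95% interval -1.98 to -0.48), or 0.427 of the NC level. The unadjusted p of 0.00294 was the third lowest of 245 microRNAs, and the edgeR adjusted p was 0.174. It met the criteria of the study, which ask for an unadjusted p under 0.05 and a change by a factor of 2 or more, as did 6.94% of the microRNAs tested, counted in both directions. At the adjusted threshold 0% were called, with 13.5% at an unadjusted p under 0.05, and DESeq2 also called 0. In the non-VSD group it was -0.93 (SE 0.35, 95% interval -1.67 to -0.20), or 0.524 of NC, with an unadjusted p of 0.0158 and an edgeR adjusted p of 0.123, in a comparison where 4.96% of 242 microRNAs were called. The fold stayed short of the criteria of the study, which 12.4% of microRNAs met here. The VSD and non-VSD groups differed by -0.24 (95% interval -0.98 to 0.49), in a comparison where 0% of 273 microRNAs were called by edgeR and 10.6% had an unadjusted p under 0.05.

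**Figure D4:**
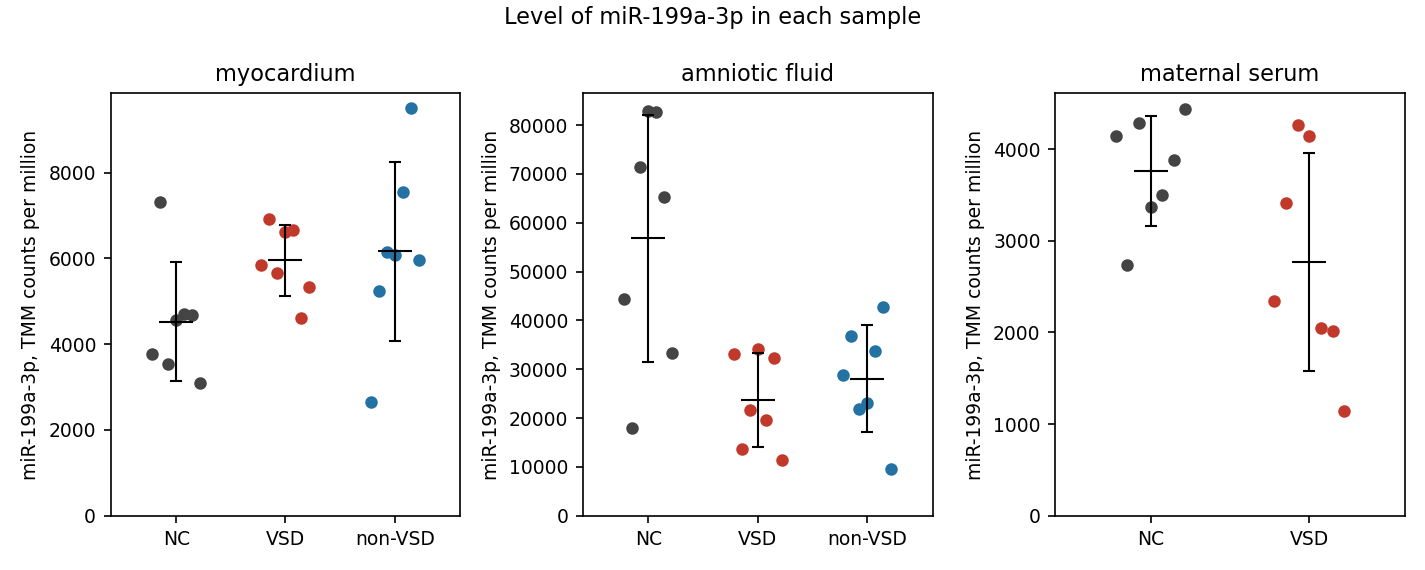
Level of miR-199a-3p in each sample, in CPM after TMM scaling within the tissue, with a separate axis starting at 0 for each tissue. Coloured points are samples, 7 per group, and black marks are the mean ± SD. In amniotic fluid 5 of 7 NC samples lie above all 14 samples of the DMO groups, whereas in myocardium the 3 groups overlap.

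The microRNAs of red blood cells (miR-451-5p, miR-144-3p, miR-144-5p and miR-486) moved the other way in amniotic fluid. They summed to 15044 to 34791 CPM in NC, 18119 to 143484 in the VSD group and 25425 to 86089 in the non-VSD group. These ranges overlapped. In each DMO group 4 of 4 had a positive fold change, with medians of 2.02 and 2.81 against -0.06 and 0.11 over all microRNAs. Of the 4, 0 and 2 were called, where 0% of 245 and 4.96% of 242 microRNAs were. In myocardium the same 4 had negative fold changes in both DMO groups, with medians of -2.37 and -1.61 against -0.05 and -0.07 over all microRNAs. There 0 of them were called, where 0.426% and 0.219% of all microRNAs were. Their part in the values of miR-199a-3p was not tested.

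miR-199a-5p in amniotic fluid had 0 to 965 CPM in NC (median 383), 0 to 269 in the VSD group (median 212) and 0 to 699 in the non-VSD group (median 518). All 7 VSD samples lay under the NC median and under the non-VSD median. The log2 fold change was -1.26 in the VSD group (SE 0.77, 95% interval -2.88 to 0.36, edgeR adjusted p = 0.480) and 0.02 in the non-VSD group (95% interval -1.63 to 1.67), and VSD against non-VSD gave -1.23 (95% interval -2.93 to 0.46). The median VSD sample held 29 counts of it. Its unadjusted edgeR p in the VSD group was 0.121, short of the criteria of the study. The study itself listed both arms of miR-199a as downregulated in VSD amniotic fluid and neither in non-VSD amniotic fluid. It also listed a PCR primer for miR-199a-5p, but its text gives no PCR result for it.

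miR-214-3p in amniotic fluid had 93.5 to 707 CPM in NC (median 208), 0 to 733 in the VSD group (median 117) and 0 to 354 in the non-VSD group (median 140). The groups overlapped over most of their range. The log2 fold changes were -0.46 (95% interval -2.08 to 1.16) and -0.72 (95% interval -2.16 to 0.71).

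The arm ratio in amniotic fluid did not pass the threshold in any comparison. With the samples that had at least 10 counts of both arms, which left out those at 0, the log2 ratio was 0.997 higher in non-VSD than in NC (exact p = 0.0281, adjusted p = 0.0750) and VSD was 0.82 lower than non-VSD (exact p = 0.0260, adjusted p = 0.0750). In all samples these differences were 0.97 (exact p = 0.371) and -0.82 (exact p = 0.439).

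In maternal serum 0% of 219 microRNAs were called by edgeR in the VSD group against NC, 13.7% had an unadjusted p under 0.05, and DESeq2 called 4 in all and none of the members. miR-199a-3p had 1139 to 4265 CPM in the VSD group (median 2346) against 2738 to 4443 in NC, and 4 of 7 VSD samples lay under every NC sample. The log2 fold change was -0.44 (SE 0.25, 95% interval -0.97 to 0.08, edgeR adjusted p = 0.489). miR-214-3p had 11.9 to 82.9 (median 21.9) against 14.3 to 48.7, and its log2 fold change was -0.24 (95% interval -1.11 to 0.62). miR-199a-5p, at 2 to 11 counts per VSD sample and 3 to 26 per NC sample, did not pass the filter on low counts, and without that filter its difference was -0.31 (edgeR adjusted p = 0.859).

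**Figure D5:**
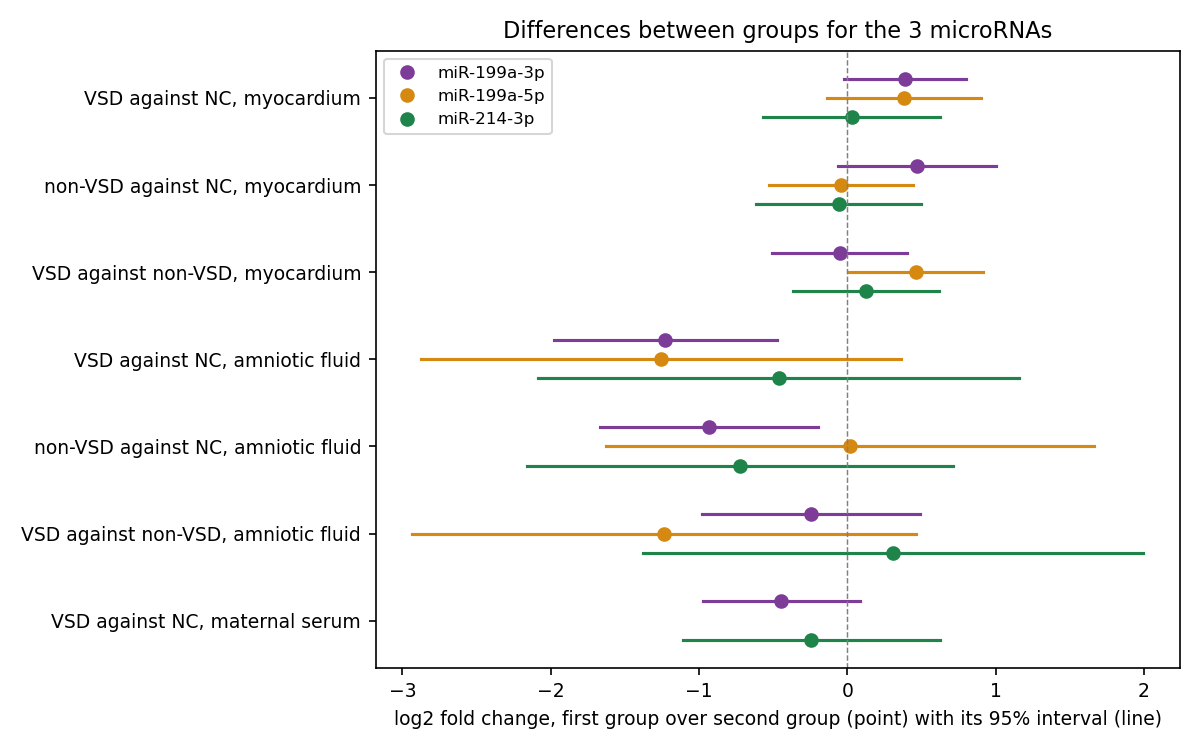
Log2 fold change of each of the 3 microRNAs in 7 comparisons within a tissue, from edgeR fits of all microRNAs, with 7 samples per group. Points are estimates and lines are 95% intervals. Of the comparisons with NC, the intervals of miR-199a-3p in amniotic fluid lie below 0 in both DMO groups, and those in myocardium include 0. miR-199a-5p in serum was not tested.

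The difference of miR-199a-3p from NC was itself compared between tissues, by a permutation of NC and VSD (or non-VSD) labels inside every tissue on the log2 scale, with p-values adjusted over 20 such tests. VSD minus NC was 0.43 in myocardium and -1.21 in amniotic fluid, which differed by 1.64 (permutation p = 0.00111, adjusted p = 0.0222). Against serum, where VSD minus NC was -0.55, the difference was 0.99 (permutation p = 0.00405, adjusted p = 0.0405). The non-VSD group gave 0.41 in myocardium and -0.98 in amniotic fluid, a difference of 1.39 (permutation p = 0.0088, adjusted p = 0.0587). Amniotic fluid and serum differed by -0.65 (permutation p = 0.279). No test on miR-199a-5p, miR-214-3p or either ratio passed, with adjusted p-values of 0.54 or more.

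Across samples of a tissue the members varied together to different extents, as levels scaled in the same libraries. In myocardium, over 21 samples, miR-199a-5p and miR-214-3p had a Pearson r of 0.76 (permutation p = 7e-05, adjusted 0.000315 over 9 tests) and a Spearman rho of 0.73 (permutation p = 0.00021, adjusted 0.000945). Without the 2 samples farthest from the median of miR-199a-5p r was 0.59, and within the NC, VSD and non-VSD groups it was 0.96, 0.63 and 0.51. In pairs with miR-199a-3p the 2 farthest samples were chosen by miR-199a-3p alone. The arms of miR-199a had r = 0.71 (permutation p = 0.00032, adjusted 0.00096) and rho = 0.65 (permutation p = 0.00178, adjusted 0.00534), with r = 0.54 without the 2 farthest samples. miR-199a-3p and miR-214-3p had r = 0.58 (permutation adjusted p = 0.0094), with r = 0.51 without the 2 farthest. Their rho was 0.44 and did not pass (permutation adjusted p = 0.076). In amniotic fluid the arms had r = 0.76 (permutation p = 4e-05, adjusted 0.000315) and rho = 0.75 (permutation p = 0.00018, adjusted 0.000945), with r = 0.60 without the 2 farthest. Counts of 0, 3 of miR-199a-5p and 2 of miR-214-3p, enter these values at the prior count. miR-214-3p had r = 0.64 and rho = 0.60 with miR-199a-3p (permutation adjusted p = 0.00272 and 0.0105). That r was 0.37 without the 2 farthest, and 0.82, 0.26 and 0.95 within NC, VSD and non-VSD. With miR-199a-5p it had r = 0.69 and rho = 0.50 (permutation adjusted p = 0.00272 and 0.0422), with r = 0.63 without the 2 farthest. In serum, over 14 samples, the arms had r = 0.58 (permutation p = 0.0282, adjusted 0.0363) and rho = 0.40 (permutation p = 0.159, adjusted 0.205), with r = 0.52 without the 2 farthest, and miR-214-3p had r = 0.10 with miR-199a-3p (permutation p = 0.731) and -0.15 with miR-199a-5p (permutation p = 0.605).

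The microRNAs whose levels were most like the mean of the 3 members in myocardium, by Spearman correlation over 21 samples and among 480 microRNAs, were miR-376a-5p (0.86), miR-496-3p (0.86), miR-204-5p (0.83), miR-541-5p (0.82) and miR-140-5p (0.82). The median over all was -0.05. In amniotic fluid, among 270 microRNAs with a median of 0.03, they were miR-136-3p (0.73), miR-382-3p (0.72), miR-485-5p (0.70), miR-496-3p (0.70) and miR-434-3p (0.65). In serum, over 14 samples, the most alike were miR-20b-5p (0.66), miR-378a-5p (0.66), miR-101a-3p (0.63), miR-322-3p (0.59) and miR-126a-5p (0.57).

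Another 21 microRNAs known from mesenchyme, smooth muscle, cartilage and fibroblasts were read beside the members. In NC myocardium against NC serum 12 of the 20 tested were higher and 6 lower, where 45.5% and 32.5% of all microRNAs tested were, with a median log2 difference of 1.44 against 0.57 over all microRNAs. miR-143-3p, a smooth muscle microRNA, was higher by 4.04 (edgeR adjusted p = 1.29e-10), its partner miR-145-5p by 0.72 (edgeR adjusted p = 0.000837) and miR-152-3p by 3.65 (edgeR adjusted p = 5.86e-11). The injury- and fibroblast-associated miR-21-5p was higher by 5.82 and miR-100-5p by 6.08. The other 7 that were higher were miR-143-5p (2.61), miR-145-3p (2.06), miR-152-5p (6.31), miR-99a-5p (3.65), miR-22-3p (4.02), miR-27b-3p (1.77) and miR-23b-3p (1.11). The 6 lower ones were the miR-29 family, known for repressing collagen genes, with -10.1 for miR-29a-3p, -6.56 for miR-29b-3p and -10.1 for miR-29c-3p, together with miR-125b-5p (-1.62), miR-140-3p (-1.37) and miR-24-3p (-0.69).

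Within tissues this list moved little. In myocardium 0 of 20 were called in either DMO group, with medians of 0.12 in the VSD group and 0.13 in the non-VSD group against -0.05 and -0.07 over all microRNAs. In amniotic fluid 0 of 15 were called in the VSD group (median -0.30 against -0.06), and 1 of 16 in the non-VSD group (median 0.15 against 0.11). That one was miR-27b-3p, which fell by 1.41 (SE 0.30, edgeR adjusted p = 0.0272). In serum 0 of 18 were called and 16 of 18 had a negative fold change (median -0.19 against -0.03). miR-143-3p had log2 fold changes of -0.62, -0.29, -0.15, 0.47 and -0.08 in VSD and non-VSD myocardium, VSD and non-VSD amniotic fluid and VSD serum, miR-145-5p had 0.11, 0.02, -0.19, 1.61 and -0.27, and miR-152-3p had -0.15, 0.15, -0.75, -0.33 and -0.02, with none called.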

How the data were processed

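Per the labels and the study's methods, RNA from 56 samples was sequenced on Illumina instruments with TruSeq (myocardium, serum) or QIAseq (amniotic fluid) libraries, and the submitters' notes name bcl2fastq 2.19 and DESeq. The aligner, annotation and use of molecular identifiers were not given in the sources used here. The authors deposited 5 tables of raw counts per microRNA. Normalized columns and the authors' own fold changes, p-values and adjusted p-values were not used. The 46 amniotic fluid microRNAs listed in 1 table had 0 NC counts and were taken as 0 in the other group. Counts were tested with edgeR 4.0.16 (R 4.3.3), filterByExpr (minimum count 10), TMM and Benjamini-Hochberg adjustment over all microRNAs tested, with DESeq2 1.42.0 and limma 3.58.1 as alternatives. Confidence intervals of fold changes are 95% intervals. The script was tested on simulated data in which 200 microRNAs were changed, of 523 simulated for VSD against NC in amniotic fluid. Of these 523, 237 passed the filter. Among those, 26.3% of 38 changes of 1 on the log2 scale and 86.5% of 52 changes of 2 were recovered. Changed microRNAs that did not pass the filter are not counted in these shares. Ratios used exact permutation tests. Named microRNAs were the members, the arms of their hairpins, the called members of the mesenchymal list with miR-143-3p, miR-145-5p and miR-152-3p, and the 5 with the highest likeness per tissue. Members and lists were chosen with earlier results of these data known. Permutations of correlations and tissue differences drew 100000 samples. The limits given for a count of 0 cover counting error only.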

Additional observations from a re-analysis of the deposited data

Results flagged for a closer look

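Of 40 sets of 7 values looked at (levels and ratios by group), 7 held a sample whose gap to its nearest neighbour exceeded Dixon's limit of 0.568 of the range, where chance flags about 1 in 20. All 7 were in amniotic fluid, and each was a sample with 0 counts of the microRNA concerned. The log2 ratio of miR-199a-5p over miR-199a-3p was -11.58 in NC replicate 2, -11.59 in VSD replicate 7 and -10.77 in non-VSD replicate 7. The log2 ratio of miR-214-3p over miR-199a-3p was -10.77 in non-VSD replicate 7. The log2 CPM of miR-199a-5p were 3.69 in VSD replicate 7 and 3.69 in non-VSD replicate 7, and those of miR-214-3p were 3.69 in the latter. These values are set by the prior count added to 0.

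The difference of miR-199a-3p between VSD and NC was unlike between tissues, by 1.64 between myocardium and amniotic fluid (permutation, adjusted p = 0.0222) and by 0.99 between myocardium and maternal serum (permutation, adjusted p = 0.0405). Only myocardium came from wax blocks and only amniotic fluid was prepared with the other kit, although each difference was taken within its tissue.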

How the results depend on the processing

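Of 210 values under 11 alternatives other than leaving out 1 sample, 186 kept their direction and their side of the threshold. The excess of miR-199a-5p and miR-214-3p in NC myocardium over serum, and both ratios there, stayed called under each alternative that gave a value, the stricter filter giving none for either level. In amniotic fluid miR-199a-3p stayed between -1.30 and -1.08 in the VSD group, with adjusted p-values of 0.0541 (DESeq2) to 0.225, and between -1.02 and -0.82 in the non-VSD group (0.0710 to 0.226). With limma miR-214-3p there was -1.73 and -1.44, and in VSD myocardium miR-199a-3p was 0.85 (limma adjusted p = 0.0612), miR-199a-5p 0.84 and miR-214-3p 0.55, with the median of all microRNAs at 0.40, and none was called.

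Values that turned were uncalled, but for 1, and the cause was not tested. In non-VSD myocardium miR-199a-5p was 0.26 with limma, 0.11 with library sizes alone and 0.11 without the libraries low in muscle microRNAs, and miR-214-3p was 0.31, 0.050 and 0.18. In non-VSD amniotic fluid miR-199a-5p was -0.0068 with library sizes alone and -0.066 with all 3 groups in 1 fit. For VSD against non-VSD, miR-199a-3p in myocardium was 0.17 with limma and 0.095 with library sizes alone, and miR-214-3p in amniotic fluid was -0.29 with limma. For NC myocardium against serum, miR-199a-3p was 0.027 with DESeq2, 0.030 with limma, 0.16 with library sizes alone, 0.35 with no filter and 0.72, called, with at least 10 counts in every sample. It was -0.54, called, without the libraries low in muscle microRNAs, an alternative chosen after seeing the data. The ratio of miR-214-3p to miR-199a-3p in amniotic fluid, in samples with at least 10 counts of both, was 0.79 for VSD, 0.35 for non-VSD and 0.44 for VSD against non-VSD.

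Library sizes alone moved the median of all microRNAs from -0.05 to 0.32 for VSD and from -0.07 to 0.13 for non-VSD myocardium, from 0.02 to 0.19 between them, and from 0.57 to 0.86 for NC myocardium against serum, and miR-199a-3p in VSD and non-VSD myocardium was then 0.73 and 0.64, uncalled. The number of microRNAs called in VSD myocardium was 2, against 46 with DESeq2, 44 with limma, 38 with library sizes alone, 1 with no filter, 15 with the stricter filter, 25 with 3 groups and 7 without the libraries low in muscle microRNAs. In non-VSD myocardium it was 1, against 48, 29, 22, 3, 8, 7 and 19. In non-VSD amniotic fluid it was 12, against 29 with DESeq2 and 6 with limma. In serum it was 0, against 4 with DESeq2 and 3 with no filter, and for VSD against non-VSD amniotic fluid 0, against 6 with DESeq2, 1 with library sizes alone and 4 with the stricter filter.

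Same-numbered samples correlated above 0.1 in 0 to 5 of 7 pairs, so the numbers were not taken as pairs. With the replicate block the calls were 0, 0 and 2 in VSD myocardium, non-VSD myocardium and non-VSD amniotic fluid and 5 in serum, and no member changed call. The block gave 0.018 for miR-199a-5p and 0.074 for miR-214-3p in non-VSD myocardium, -0.21 for miR-199a-5p in non-VSD amniotic fluid and -0.059 for miR-214-3p between VSD and non-VSD amniotic fluid. Between 0 and 1 of 7 samples correlated best with its own number. No paired analysis was possible for NC myocardium against serum because no label ties a fetus to a dam.

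Leaving out 1 sample at a time gave 546 values, of which 6 newly passed the threshold and 53 turned. The ranges for those results were 0.24 to 0.52 for miR-199a-3p and -0.16 to 0.24 for miR-214-3p in VSD myocardium, -0.15 to 0.11 for miR-199a-5p and -0.19 to 0.18 for miR-214-3p in non-VSD myocardium, and -0.27 to 0.34 for miR-199a-5p in non-VSD amniotic fluid. For VSD against non-VSD they were -0.17 to 0.032 for miR-199a-3p in myocardium and -0.45 to 0.59 for miR-214-3p in amniotic fluid, and for miR-199a-3p in NC myocardium against serum -0.54 to 0.081. The ratio of the arms ranged from -0.10 to 0.056 for VSD, from -0.52 to -0.35 for non-VSD and from 0.33 to 0.51 for VSD against non-VSD in myocardium, and from -0.48 to 0.82 for VSD in amniotic fluid. The ratio of miR-214-3p to miR-199a-3p ranged from -0.40 to -0.23 for VSD and -0.035 to 0.24 for VSD against non-VSD in myocardium, from -0.84 to 0.39, -0.33 to 0.32 and -0.67 to 0.56 for VSD, non-VSD and VSD against non-VSD in amniotic fluid, and from -0.0056 to 0.47 in serum. The number of microRNAs called ranged from 0 to 77 in VSD myocardium and from 0 to 21 in non-VSD amniotic fluid.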
